A study of Mus musculus with 19 samples.

Results

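Polyethylene (PE) gavage on the metabolic dysfunction-associated steatohepatitis (MASH) diet was compared with vehicle gavage on the same diet in bulk liver RNA-seq. The members are the 10 libraries labelled MD + PE (n = 5) and MD + Veh (n = 5), of 19 libraries in the series, and all genes that passed a filter on low counts by group. The mice were male wild-type C57BL/6, 8 weeks old at the start according to the methods of the study, and all 10 ate the high-fat, high-fructose, high-cholesterol diet (MD) for 8 weeks. MD + PE mice were gavaged daily with 2 mg of PE particles in dilute Tween 20, and MD + Veh mice with the same carrier without particles, so both groups share the gavage and the detergent. The other 9 libraries come from mice on a control diet (CD), 4 with vehicle and 5 with PE. The label on extraction speaks of 4 livers, while 5 libraries carry each MD label, and each library was taken as 1 mouse. The labels give 1 batch for all libraries. Genes of skeletal muscle and of the gastrointestinal tract are set apart at the end, because they were by far the highest in single libraries.

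The liver makes fatty acids from citrate: ATP citrate lyase releases acetyl-CoA, acetyl-CoA carboxylase turns it into malonyl-CoA, fatty acid synthase builds palmitate, and desaturases and elongases shape the chain. Cholesterol is made from the same acetyl-CoA through mevalonate, squalene and lanosterol. Both routes are under control of the sterol regulatory element-binding proteins (SREBPs), which are released from the endoplasmic reticulum when membrane sterol is low and which bind short sterol response elements in promoters. Dietary cholesterol lowers the sterol route, while sugar and insulin raise fatty acid synthesis, also through the carbohydrate sensor ChREBP.

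The 10 libraries held 11163063 to 15417813 counts, with 13406037 to 15417813 in MD + Veh and 11163063 to 12757617 in MD + PE. Levels are given in CPM, counts brought to a common library total with TMM factors from edgeR, and the quasi-likelihood test of edgeR was run on 13597 genes over all 19 libraries. Calls required an adjusted p (Benjamini-Hochberg) under 0.05 together with a change of 0.38 or more on the log2 scale in either direction. Hepatocyte identity genes were detected in every library (14 of 14), with a summed level of 69910 to 91000 CPM. Library numbers run from 39 to 57 without a gap, and the labels name no division among them. Rps6-ps4, a ribosomal pseudogene, was at 70.1 to 105 CPM in each library numbered 39 to 45 and at 0 in each numbered 46 to 57. A division between 45 and 46, set with these data known, puts MD + Veh replicates 1 to 3 (43 to 45) on one side and MD + Veh replicates 4 and 5 (46 and 47) on the other, with all PE libraries (48 to 57). The trend of a library's expression on GC content was between 0.07 and 0.18 log2 units per 10 percentage points in MD + Veh replicates 1 to 3, and between -0.06 and -0.04 in MD + Veh replicates 4 and 5. In MD + PE it was between -0.10 and -0.03. On CD the trend followed the division less closely, at 0.003 in CD + Veh replicate 1 and 0.018 in CD + PE replicate 5. Counts of called genes in MD + PE against MD + Veh are also given with this division as a covariate, a fit in which the effect of PE rests on MD + Veh replicates 4 and 5.

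On the MASH diet, PE livers had lower levels of 28 of 57 genes for fatty acid and sterol synthesis and of 5 of 22 for fructose use, glycolysis and the pentose phosphate pathway, and small rises in a scattered group of genes. Of 13597 genes tested, 147 were called (1.08%), 20 higher (0.147%) and 127 lower (0.934%) in MD + PE. Outside the muscle and gastrointestinal lists there were 134. A single library held over 50% of the summed CPM of the 10 libraries for 6 of these, which left 128 genes, 17 higher and 111 lower. The median log2 fold change was 0.45 among the 17 and -0.71 among the 111, and of these 111 genes, 78 fell by less than 1 on the log2 scale. The groups did not overlap for 15 of the 17 and 87 of the 111, against 3.57% of all genes tested (2.49% with MD + PE lower). An unadjusted p below 0.05 was found for 15.7% of all genes, 9.26% lower and 6.42% higher. With the division as a covariate 33 genes were called (0.243%), 0 of them higher, and 31 of the 33 were among the 147, the other two being Pklr and Adipor2. The 18 genes called in libraries numbered 46 and above were all among the 147. Of the 128 genes, 127 kept their sign with the covariate. The median size was 0.63 in place of 0.68, with a median SE of 0.15 against 0.13. The covariate fit sets MD + PE against MD + Veh replicates 4 and 5. Where the groups did not overlap, the sign could therefore not change. Leaving out MD + PE replicate 3 gave 56 calls, MD + PE replicate 4 or MD + Veh replicate 1 gave 84, MD + PE replicate 2 gave 85, MD + Veh replicate 2 gave 89 and MD + Veh replicate 4 gave 243. Where a gene is said to lose its call without certain libraries, each was left out alone. DESeq2 called 296 genes (2.18%), 89 higher and 207 lower, including 141 of the 147.

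**Figure D1:**
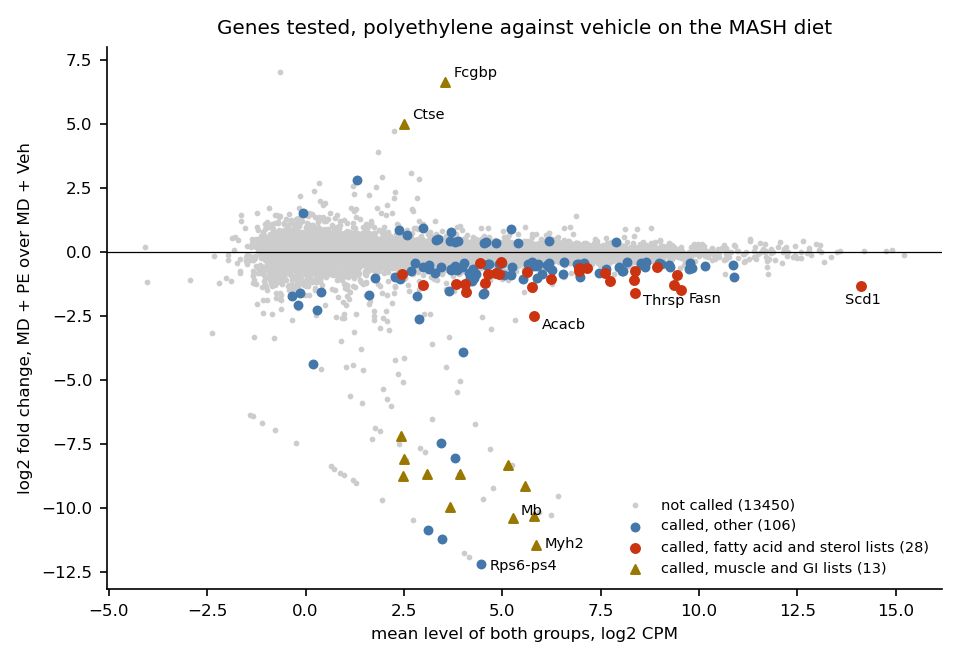
Log2 fold change of MD + PE over MD + Veh (vertical axis) against the mean level of both groups in log2 CPM (horizontal axis) for the 13597 genes tested. Grey points were not called, red points are the 28 called genes of the fatty acid and sterol lists, blue points the other 106 called genes and triangles the 13 called genes of the muscle and gastrointestinal (GI) lists. The red points lie between -2.48 and -0.39, and the called muscle genes between -11.44 and -7.16.

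Fatty acid and sterol synthesis was covered by 4 lists: de novo lipogenesis, polyunsaturated fatty acid synthesis, cholesterol synthesis, and SREBP regulators with sterol uptake. Of their 57 tested genes 28 were called, all lower (49.1%, against 0.934% of all genes), and the median log2 fold change was -0.73 against -0.01 over all genes. The sign was negative for 52 of the 57, and for 28 every MD + PE library lay below every MD + Veh library. With the covariate the median was -0.83 and 11 of the 57 were called, and in libraries numbered 46 and above 6 were called. Leaving out 1 library gave 17 calls (without MD + PE replicate 3) to 29, and 16 of the 28 genes kept their call whichever library was left out.

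In de novo lipogenesis 9 of 16 tested genes fell, with a list median of -0.96, and 15 of 16 had a negative sign. With the covariate 5 of the 16 were called. Acacb, the acetyl-CoA carboxylase at the mitochondrial membrane, had the largest fall among the called genes of these lists (GRCm39, chr5:114284307-114388822). It was at 122, 115, 51.9, 59.6 and 128 CPM in MD + Veh replicates 1 to 5 and at 15.4, 23.9, 11.04, 22.6 and 12.2 CPM in MD + PE replicates 1 to 5. The lowest vehicle value was over 2 times the highest PE value, and the log2 fold change was -2.48 (SE 0.29, edgeR adjusted p = 0.000611). With the covariate it was -2.45 (adjusted p = 0.00556), and Acacb was called in all 25 fits made for this comparison. The 25 include the main fit itself and the main fit without a minimum fold change, which keeps every call by construction. Acaca, the cytosolic carboxylase that feeds synthesis, went from 155 ± 22.9 to 94.4 ± 9.54 CPM (SD, n = 5 and 5; log2 fold change -0.71, adjusted p = 0.0389). Acaca lost its call when any library other than MD + Veh replicate 4 was left out.

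Fasn, fatty acid synthase (chr11:120696672-120715995), was at 1181, 1068, 905, 909.7 and 1378 CPM in MD + Veh and at 596, 519.9, 247, 349 and 254 CPM in MD + PE. The 2 groups did not overlap (log2 fold change -1.47, SE 0.27, edgeR adjusted p = 0.00831; with the covariate -1.54, adjusted p = 0.0653). Scd1, the stearoyl-CoA desaturase that makes oleate (chr19:44382894-44399154), had the highest level of the called genes. It was at 23040, 31580, 24670, 25480 and 22770 CPM in MD + Veh and at 10170, 12730, 8590, 11020 and 8508 CPM in MD + PE (log2 fold change -1.32, SE 0.19, adjusted p = 0.00121). The groups did not overlap. Reads of Scd1 and of its close paralogs can be assigned to one another.

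Acly, ATP citrate lyase (chr11:100367165-100440756), was at 267, 266, 229.7, 261 and 443 CPM in MD + Veh and at 160.2, 139.7, 128, 114 and 133 CPM in MD + PE (log2 fold change -1.12, adjusted p = 0.0183). MD + Veh replicate 5 stood above the other vehicle libraries, and every PE library was below the vehicle libraries. Slc25a1, the carrier that exports citrate from mitochondria (chr16:17743075-17746245), was at 176, 175, 175, 157 and 182 CPM in MD + Veh and at 119.8, 109, 109, 122 and 100.5 CPM in MD + PE. Its fall was smaller (log2 fold change -0.62) but tight (SE 0.079, adjusted p = 0.000611), and it was called in all 25 fits. Thrsp, the lipogenic cofactor Spot 14 (chr7:97062139-97066937), was at 403, 302, 342, 471 and 991 CPM in MD + Veh and at 220.5, 172, 123, 137 and 189 CPM in MD + PE (log2 fold change -1.57, SE 0.28, adjusted p = 0.00816). MD + Veh replicate 5 was again the highest library.

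Acss2, which makes acetyl-CoA from acetate, fell from 102 ± 19.2 to 49.9 ± 4.58 CPM (SD, n = 5 and 5; log2 fold change -1.04, adjusted p = 0.0156). Me1, malic enzyme, a source of NADPH, fell from 249.9 ± 51.5 to 141 ± 19.2 CPM (log2 fold change -0.82, adjusted p = 0.034). Acly lost its call without MD + PE replicates 3 or 4, and Acss2 lost its call without MD + PE replicate 4. Me1 lost its call without MD + PE replicates 1, 3, 4 or 5 or MD + Veh replicates 2 or 5. Elovl6, which elongates palmitate, was at 156 ± 60.8 and 84.7 ± 14.9 CPM and did not pass the threshold (log2 fold change -0.88, adjusted p = 0.0663). Srebf1, which codes for the SREBP of fatty acid synthesis, was at 732, 548, 624, 572 and 499 CPM in MD + Veh and at 637, 588, 442, 372 and 384 CPM in MD + PE. The groups overlapped and the difference was not called (log2 fold change -0.2957, SE 0.21, adjusted p = 0.535). Mlxipl, which codes for ChREBP, was at 406 ± 57.1 and 459 ± 84.4 CPM (log2 fold change 0.18, adjusted p = 0.572).

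**Figure D2:**
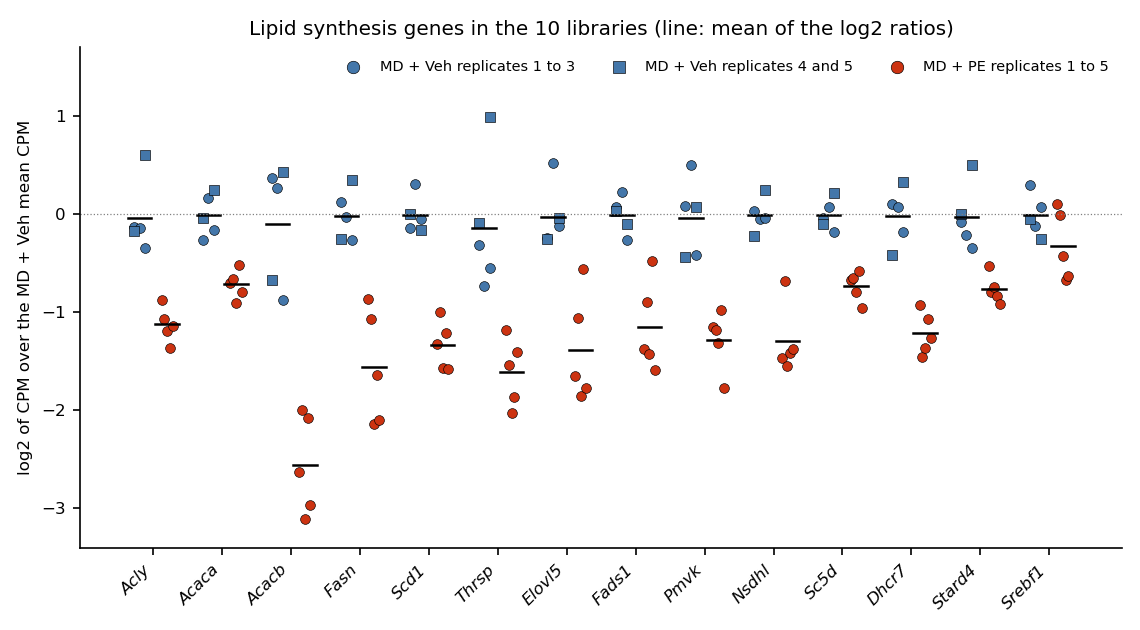
Log2 of each library's CPM over the mean CPM of MD + Veh (vertical axis, 0 is that mean) for 14 genes of fatty acid and sterol synthesis and their regulators (horizontal axis). Blue circles are MD + Veh replicates 1 to 3, blue squares MD + Veh replicates 4 and 5, red circles MD + PE, and lines are means of the log2 ratios. For 13 of the genes all 5 MD + PE libraries lie below all 5 MD + Veh libraries, and for Srebf1 the groups overlap.

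The promoters of the called lipid genes were read from GRCm39 to show the letters that SREBPs are known to bind. The window was the 250 bases before the start of the canonical GENCODE vM39 transcript, and the motif searched was TCACNCCAC on both strands, a form of the sterol response element. It stood in 3 of the 28 called lipid genes (10.7%), in 2 of the 29 tested members that were not called (6.90%), in 2 of 81 other protein-coding genes called lower (2.47%), and in 135 of all 12345 protein-coding promoters of that length (1.09%). The 81 were not set apart by tissue and include the 11 called genes of the muscle list. The E-box CACGTG, to which ChREBP and SREBP1 can bind, stood in 3 of the 28 (10.7%), 4 of the 29 not called (13.8%) and 7.75% of all. CCAAT, the box of NF-Y, stood in 13 of the 28 (46.4%), 15 of the 29 (51.7%) and 36.2% of all, and the GC box GGGCGG in 13 of the 28 (46.4%), 18 of the 29 (62.1%) and 48.4% of all. For these 3 motifs the share was higher in the members not called than in those called. In the 81 other genes called lower it was 2.47% (E-box), 43.2% (CCAAT) and 28.4% (GC box), each below the share in the called lipid genes. Both strands were searched for each, and matches of different motifs may overlap. Of the windows with TCACNCCAC, those of Acss2 and Acaca are shown 5′ to 3′ on the strand of the gene, with the motif in capitals. They lie at chr2:155359618-155359867 (plus strand) for Acss2 and chr11:84063698-84063947 (plus strand) for Acaca.
Acss2: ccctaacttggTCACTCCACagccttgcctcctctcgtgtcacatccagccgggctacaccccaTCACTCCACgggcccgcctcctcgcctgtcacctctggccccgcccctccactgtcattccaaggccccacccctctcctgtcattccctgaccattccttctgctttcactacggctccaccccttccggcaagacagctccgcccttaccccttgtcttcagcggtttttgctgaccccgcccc
Acaca: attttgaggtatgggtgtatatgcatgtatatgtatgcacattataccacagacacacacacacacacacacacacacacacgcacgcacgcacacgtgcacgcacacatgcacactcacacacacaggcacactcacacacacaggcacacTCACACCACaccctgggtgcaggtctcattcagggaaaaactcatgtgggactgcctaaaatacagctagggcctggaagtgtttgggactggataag
The motif ended 90 bases before the start in Acaca, and the 2 copies in Acss2 ended 231 and 178 bases before it. Canonical starts can differ from those used in liver, and the Acaca window lies in a run of CA repeats.

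Polyunsaturated fatty acids are made by the desaturases Fads1 and Fads2 and the elongases Elovl2 and Elovl5. In this list 5 of 9 tested genes fell, with a median of -0.41. Elovl5 was at 796, 1350, 866, 791 and 919 CPM in MD + Veh and at 299.9, 454, 261, 638 and 276 CPM in MD + PE (log2 fold change -1.29, SE 0.23, edgeR adjusted p = 0.00702). MD + PE replicate 4 was the PE library nearest to the vehicle range, for Elovl5 as for both desaturases. Fads1, the delta-5 desaturase, was at 462, 517, 368, 450.2 and 409.9 CPM in MD + Veh and at 170.0, 236, 164, 317 and 146 CPM in MD + PE (log2 fold change -1.09, adjusted p = 0.00773). Fads2, the delta-6 desaturase, fell from 913 ± 122 to 489.7 ± 117 CPM (SD, n = 5 and 5; log2 fold change -0.8985, adjusted p = 0.0281). Elovl2 fell by less (log2 fold change -0.55, adjusted p = 0.0176), as did Elovl1, which extends longer saturated chains (-0.41, adjusted p = 0.0413). With the covariate the list median was -0.53 and 0 of the 9 were called, with adjusted p of 0.103 for Fads1 and 0.129 for Elovl5. Fads2 lost its call without MD + PE replicates 1, 2, 3 or 5 or MD + Veh replicates 1 or 2, and Elovl1 lost its call when any library other than MD + PE replicate 4 and MD + Veh replicate 4 was left out. Both also lost it after removal of library trends on GC content and length of transcripts. The other 3 kept their calls in all 10 such fits.

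In cholesterol synthesis all 20 tested genes had a negative sign, 10 were called, and the median was -0.82. On the mevalonate arm, Mvk, mevalonate kinase, fell from 7.06 ± 0.891 to 3.88 ± 0.668 CPM (SD, n = 5 and 5; log2 fold change -0.86, edgeR adjusted p = 0.0119). Pmvk, the next kinase, was at 24.97, 33.3, 17.7, 17.4 and 24.7 CPM in MD + Veh and at 10.6, 10.4, 9.47, 11.9 and 6.91 CPM in MD + PE (log2 fold change -1.25, adjusted p = 0.00857). Idi1, the isopentenyl diphosphate isomerase, and Fdps, farnesyl diphosphate synthase, fell with log2 fold changes of -1.24 and -1.35 (adjusted p = 0.0271 and 0.0224). Idi1 lost its call without MD + PE replicates 3 or 5 or MD + Veh replicates 1 or 2, and Fdps lost its call without MD + PE replicates 2, 3 or 5 or MD + Veh replicate 1. On the sterol arm, Nsdhl, which removes methyl groups from the sterol ring, was at 11.5, 10.8, 10.9, 9.597 and 13.3 CPM in MD + Veh and at 4.06, 6.99, 3.83, 4.19 and 4.31 CPM in MD + PE (log2 fold change -1.26, adjusted p = 0.00158).

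Sc5d, lathosterol oxidase (chr9:42162891-42175605), was at 400.0, 435, 363, 385 and 479.9 CPM in MD + Veh and at 259, 262, 237, 275 and 212 CPM in MD + PE. The gap between the groups was wide against their spread (log2 fold change -0.73, SE 0.094, edgeR adjusted p = 0.000611), and Sc5d was called in all 25 fits. Dhcr7, which makes cholesterol from 7-dehydrocholesterol in the last step of one branch (chr7:143376740-143402149), was at 35.4, 34.5, 28.98, 24.6 and 41.3 CPM in MD + Veh and at 17.3, 12.04, 12.8, 15.7 and 13.7 CPM in MD + PE (log2 fold change -1.201, adjusted p = 0.001; with the covariate -1.201, adjusted p = 0.0188). Tm7sf2, a sterol reductase, fell with a log2 fold change of -0.81 (adjusted p = 0.00199), Msmo1, the methylsterol monooxygenase, with -0.83 (adjusted p = 0.0259) and Cyp51, the lanosterol demethylase, with -0.86 (adjusted p = 0.0496). Cyp51 overlapped between the groups. Msmo1 lost its call without MD + PE replicates 3, 4 or 5 or MD + Veh replicates 1 or 2, and Cyp51 lost its call when any library other than MD + PE replicate 4 and MD + Veh replicate 4 was left out. Lss, lanosterol synthase, missed the threshold (log2 fold change -0.77, adjusted p = 0.0745), and Ebp, the sterol isomerase, had a small shift below the fold limit (-0.33, adjusted p = 0.0214). With the covariate the list median was -0.86 and 4 of 20 were called.

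Among the regulators, Srebf2, which codes for the SREBP of sterol synthesis, was at 41.2, 39.02, 32.4, 33.7 and 32.3 CPM in MD + Veh and at 28.3, 30.6, 26.2, 24.8 and 26.3 CPM in MD + PE (log2 fold change -0.39, edgeR adjusted p = 0.029; with the covariate -0.28, adjusted p = 0.451). Stard4, a carrier of sterol inside the cell, was at 58.3, 53.2, 48.6, 61.9 and 87.1 CPM in MD + Veh and at 42.8, 35.5, 36.95, 34.5 and 32.7 CPM in MD + PE (log2 fold change -0.76, adjusted p = 0.00831). It passed with the covariate as well (-1.03, adjusted p = 0.00556). With the covariate 2 of the 12 tested genes of this list were called, of 4 without it. Srebf2 lost its call without MD + PE replicates 3, 4 or 5 or MD + Veh replicates 1 or 2. Srebf2 also lost it after removal of GC content and length trends. Insig1, which holds SREBPs in the endoplasmic reticulum, was at 297 ± 62.4 and 163 ± 32.02 CPM and missed the threshold (log2 fold change -0.86, adjusted p = 0.0989). Its homolog Insig2 was at 329.8 ± 65.6 and 285 ± 54.8 CPM (log2 fold change -0.21, adjusted p = 0.575).

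Fatty acid handling next to these routes was called in part. Acsl5, which activates fatty acids to their CoA esters, was at 315, 397, 332, 300.5 and 336 CPM in MD + Veh and at 201, 212, 193, 234 and 188 CPM in MD + PE (log2 fold change -0.71, edgeR adjusted p = 0.00166). Dbi, the acyl-CoA binding protein, was at 679, 743, 724, 758 and 769.5 CPM in MD + Veh and at 541, 513, 425, 553 and 456 CPM in MD + PE (log2 fold change -0.56, adjusted p = 0.001). Cyb5r3, the cytochrome b5 reductase that passes electrons to desaturases, was at 418, 497, 451, 499 and 512 CPM in MD + Veh and at 338, 326, 310.3, 306 and 304 CPM in MD + PE (log2 fold change -0.59, adjusted p = 0.000887), and it was called in all 25 fits. These 3 were chosen after their values were seen, and the groups did not overlap for any of them. In triglyceride synthesis and lipoproteins 2 of 26 fell, Gpam, the first acyltransferase of glycerolipid synthesis (331 ± 47.5 to 202 ± 18.3 CPM, log2 fold change -0.71, adjusted p = 0.0403), and Apoc3, an inhibitor of triglyceride clearance (-0.41, adjusted p = 0.0239). The median of that list was 0.01, and with the covariate 0 of the 26 were called. Gpam lost its call when any library other than MD + Veh replicates 3 and 4 was left out, and Apoc3 lost its call without MD + PE replicates 2, 3 or 4 or MD + Veh replicates 3 or 5. Apoc3 also lost it after removal of GC content and length trends.

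The list of fructose use, glycolysis and the pentose phosphate pathway had 5 of 22 genes lower, 18 of negative sign and a median of -0.31. With the covariate 3 of the 22 were called (Gapdh, Eno1 and Pklr), and after removal of library trends on GC content and length of transcripts 1 was, Gapdh. Gapdh, a glycolytic enzyme often used as a reference in quantitative PCR, was at 1376, 1371, 1400, 1194 and 1461 CPM in MD + Veh and at 1043, 921, 868, 877 and 959.8 CPM in MD + PE. All PE values were below all vehicle values (log2 fold change -0.54, SE 0.075, edgeR adjusted p = 0.001; with the covariate -0.51, adjusted p = 0.0329). Eno1, enolase, fell by 0.41 on the log2 scale (adjusted p = 0.00857), and the pentose phosphate enzymes Tkt, transketolase, and Taldo1, transaldolase, fell with log2 fold changes of -0.44 and -0.39 (adjusted p = 0.0336 and 0.00773). Khk, ketohexokinase, the entry enzyme of fructose, was at 328, 441, 431, 393 and 542 CPM in MD + Veh and at 330.4, 306, 295, 306 and 312 CPM in MD + PE (log2 fold change -0.46, adjusted p = 0.0407). MD + Veh replicate 1 lay inside the PE range of Khk. Eno1 lost its call without MD + PE replicate 3 or MD + Veh replicate 5, and Tkt lost its call when any library other than MD + PE replicate 1 and MD + Veh replicates 1 and 4 was left out. Taldo1 lost its call without MD + PE replicates 2, 3 or 4 or MD + Veh replicates 3 or 5, and Khk lost its call when any library other than MD + PE replicate 1 and MD + Veh replicates 1 and 4 was left out. Pklr, liver pyruvate kinase and a target of ChREBP, was not called (-0.53, adjusted p = 0.146) and passed with the covariate (-0.92, adjusted p = 0.0294), where MD + Veh replicate 5, at 581 CPM, is 1 of the 2 vehicle libraries that carry the estimate. In gluconeogenesis and insulin signalling 1 of 20 was called, with the covariate as without it. This was Fbp1, fructose-1,6-bisphosphatase, at 592, 706, 655, 706 and 859 CPM in MD + Veh and at 531, 519.6, 485, 478 and 513 CPM in MD + PE (log2 fold change -0.48, adjusted p = 0.00702). Pck1, the other gluconeogenic control enzyme, was at 1559 ± 485 and 1739 ± 526 CPM (log2 fold change 0.16, adjusted p = 0.903).

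**Figure D3:**
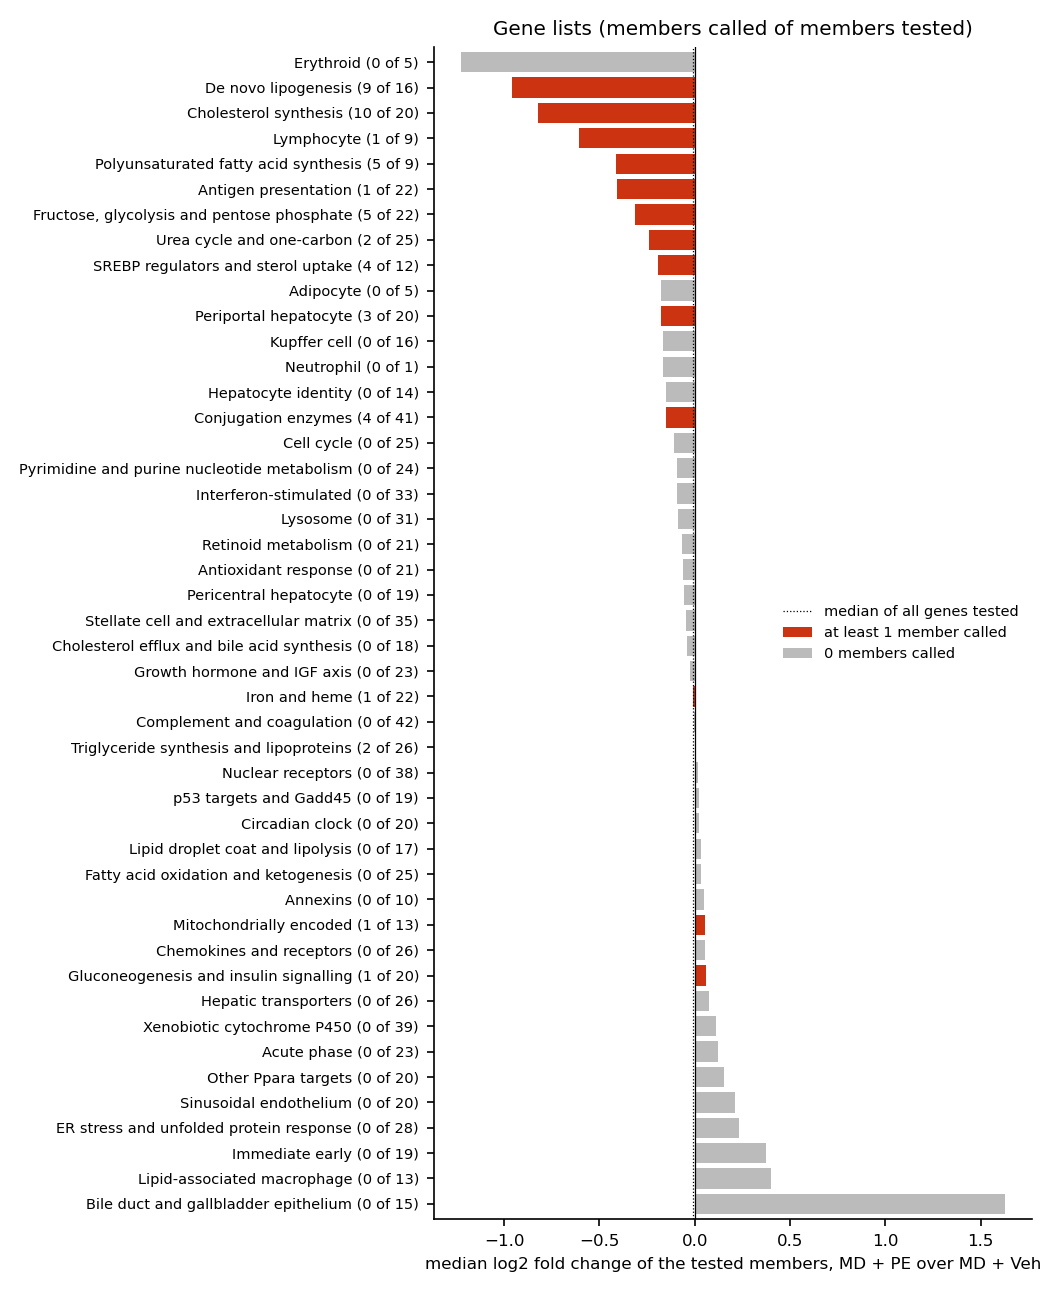
Median log2 fold change of MD + PE over MD + Veh (horizontal axis) over the tested members of 46 gene lists (vertical axis), with the members called and tested in parentheses. Red bars are lists with at least 1 called member, grey bars lists with 0, and the dotted line is the median of all genes tested, -0.01. De novo lipogenesis (-0.96) and cholesterol synthesis (-0.82) have the lowest medians among the plotted lists with a call (the skeletal muscle and gastrointestinal lists are not plotted), and the erythroid and bile duct lists, with 0 calls, lie at -1.23 and 1.63.

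Periportal hepatocytes hold the urea cycle. The periportal list had 3 of 20 lower (2 with the covariate, median -0.18), and the urea cycle and one-carbon list had 2 of 25 lower (2 with the covariate), with 21 of negative sign and a median of -0.24. Ass1, argininosuccinate synthase of the urea cycle (chr2:31352181-31410862), was at 2999, 2407, 2412, 2357 and 2363 CPM in MD + Veh and at 1523, 1152, 1224, 1107 and 1473 CPM in MD + PE. Every PE value lay below every vehicle value (log2 fold change -0.95, SE 0.12, edgeR adjusted p = 0.000611), and Ass1 was called in all 25 fits. Gls2, the liver glutaminase (chr10:128030316-128045873), was at 247, 191, 212, 231 and 235 CPM in MD + Veh and at 145, 122, 140.4, 104 and 132 CPM in MD + PE (log2 fold change -0.79, adjusted p = 0.00114), and was likewise called in all 25. Aldh1b1, a mitochondrial aldehyde dehydrogenase, fell by 0.83 on the log2 scale (adjusted p = 0.00199; with the covariate adjusted p = 0.117).

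Gnmt, which methylates glycine with S-adenosylmethionine, was at 1036, 1138, 1042, 1121 and 1125 CPM in MD + Veh and at 765, 758, 775, 517 and 772 CPM in MD + PE, with MD + PE replicate 4 the lowest (log2 fold change -0.61, adjusted p = 0.00482). Qdpr, which regenerates the cofactor of phenylalanine hydroxylase (chr5:45590463-45607587) and was chosen after its values were seen, was at 289.7, 285, 265, 321 and 341 CPM in MD + Veh and at 207, 196, 198, 194 and 204 CPM in MD + PE. Its PE values lay close together and below all vehicle values (log2 fold change -0.59, SE 0.073, adjusted p = 0.000611; with the covariate -0.73, adjusted p = 0.000517). Hgd of tyrosine breakdown fell with a log2 fold change of -0.46 (adjusted p = 0.00773), Haao of the kynurenine pathway with -0.5045 (adjusted p = 0.00702), the folate enzyme Aldh1l1 with -0.63 (adjusted p = 0.00925) and the polyamine oxidase Paox with -0.88 (adjusted p = 0.00228). These 4 were also chosen after their values were seen, and no list of amino acid breakdown was counted. Acmsd, which diverts the kynurenine pathway from NAD synthesis and falls under the rule for named genes, fell by 1.1 on the log2 scale (adjusted p = 0.0208). Acmsd lost its call without MD + PE replicates 2, 3 or 4 or MD + Veh replicate 1. In bulk liver, fewer cells of a type and less RNA per cell cannot be told apart. Albumin (Alb) was at 39290 ± 5625 and 36850 ± 4198 CPM (log2 fold change -0.092, adjusted p = 0.813) and Hnf4a, the hepatocyte master regulator, at 452 ± 44.99 and 484 ± 72.6 CPM (0.098, adjusted p = 0.667).

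Among conjugation enzymes 4 of 41 fell, with a list median of -0.15. Ugt1a5, a UDP-glucuronosyltransferase, was at 36.1, 42.2, 41.8, 31.3 and 22.6 CPM in MD + Veh and at 12.1, 19.8, 6.78, 10.5 and 6.64 CPM in MD + PE (log2 fold change -1.64, SE 0.32, edgeR adjusted p = 0.0126). The glutathione transferases Gstm2, Gstm6 and Gstm7 fell with log2 fold changes of -1.04, -0.54 and -0.58 (adjusted p = 0.029, 0.0183 and 0.00702). Gstm2 lost its call without MD + PE replicates 2 or 4 or MD + Veh replicates 1, 2 or 3, and Gstm6 lost its call without MD + PE replicate 3 or MD + Veh replicates 1, 2 or 3. Ugt1a and Gstm genes share sequence, so their counts can be split between family members. With the covariate 0 of the 41 were called, and the log2 fold changes were -1.27 for Ugt1a5 and -0.68 for Gstm2. Each other list with a call had 1: H2-Q10 of antigen presentation (-0.49, adjusted p = 0.0156), Hjv of iron handling (-0.59, adjusted p = 0.0364), the mitochondrial gene mt-Nd3 (-0.67, adjusted p = 0.0257) and Ighm, the immunoglobulin heavy chain of B cells (-1.703, adjusted p = 0.034). After removal of GC content and length trends Hjv and Ighm lost their call. With the covariate none of these 4 passed, with adjusted p of 0.221, 0.586, 0.612 and 0.48. Ighm was at 13.4 and 19.65 CPM in MD + Veh replicates 2 and 1 and between 4.95 and 9.73 CPM in the other 3 vehicle libraries, and at 2.065 to 3.82 CPM in MD + PE. Lrtm1, a leucine-rich repeat membrane protein, was called as well (18.5 ± 4.77 to 6.59 ± 2.26 CPM, log2 fold change -1.497, adjusted p = 0.028). H2-Q10 lost its call without MD + PE replicate 3, and Hjv lost its call when any library other than MD + PE replicate 1 and MD + Veh replicates 4 and 5 was left out. mt-Nd3 lost its call without MD + PE replicates 2, 3 or 4 or MD + Veh replicates 1 or 3, and Ighm lost its call without MD + PE replicates 2, 3, 4 or 5 or MD + Veh replicates 1 or 2. Lrtm1 lost its call without MD + PE replicates 2, 3 or 4 or MD + Veh replicate 1.

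The genes that rose were scattered, and apart from the gastrointestinal list no gene list held one. Outside the muscle and gastrointestinal lists and genes with over 50% of their CPM in 1 library there were 17, and 3 of them kept their call whichever library was left out (AI463229, Lrif1 and Mysm1). AI463229, a long noncoding RNA, was at 10.5, 7.495, 9.75, 9.29 and 10.1 CPM in MD + Veh and at 16.01, 14.1, 20.8, 14.5 and 16.8 CPM in MD + PE (log2 fold change 0.8009, SE 0.15, edgeR adjusted p = 0.0102). Mysm1, a histone H2A deubiquitinase, was at 11.5, 10.3, 10.5, 10.6 and 10.7 CPM in MD + Veh and at 16.7, 14.8, 14.3, 13.1 and 14.5 CPM in MD + PE (log2 fold change 0.45, adjusted p = 0.00702). Lrif1, which binds nuclear receptors and the inactive X chromosome, rose by 0.52 on the log2 scale (adjusted p = 0.0156). In each of these 3 the groups did not overlap.

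Gcnt4, a glycosyltransferase of mucin-type O-glycans, was at 4.12, 2.35, 3.55, 4.57 and 3.71 CPM in MD + Veh and at 6.18, 6.23, 8.61, 6.798 and 5.84 CPM in MD + PE (log2 fold change 0.88, edgeR adjusted p = 0.0156). Ildr2, an endoplasmic reticulum protein linked to hepatic lipid content, and Golm2, a Golgi membrane protein, rose by 0.92 and 0.96 (adjusted p = 0.021 and 0.0313). RNA-processing genes among the 17 include Srsf5, a splicing factor at 183, 229, 218, 191 and 196 CPM in MD + Veh and 257, 286, 279, 292 and 244 CPM in MD + PE (log2 fold change 0.42, adjusted p = 0.0199), Prpf39 of the U1 particle (0.38, adjusted p = 0.0125) and Zranb2 (0.38, adjusted p = 0.0389). The kinases Map3k2 and Map4k3 rose by 0.42 and 0.38 on the log2 scale (adjusted p = 0.0143 and 0.014), the O-mannosyltransferase Tmtc3 by 0.46 (adjusted p = 0.037), and the unnamed transcripts Gm15638 and ENSMUSG00000121607 by 0.67 and 0.41 (adjusted p = 0.0407 and 0.0485). The remaining 3, which fall outside the rule for named genes, were Peg10, with the largest rise of the 17 (1.52, adjusted p = 0.0456), Garre1 (0.44, adjusted p = 0.029) and Arhgap5 (0.44, adjusted p = 0.0377). Gcnt4 lost its call without MD + PE replicate 3, and Ildr2 lost its call without MD + PE replicates 2, 4 or 5. Golm2 lost its call without MD + PE replicates 2, 3 or 5 or MD + Veh replicates 1, 2 or 3, and Srsf5 lost its call without MD + PE replicates 2, 3 or 4 or MD + Veh replicate 1. Prpf39 lost its call without MD + PE replicates 2, 3 or 5 or MD + Veh replicates 1 or 3, and Zranb2 lost its call without MD + PE replicates 3, 4 or 5 or MD + Veh replicates 1, 2 or 3. Map3k2 lost its call without MD + PE replicate 3 or MD + Veh replicate 5, and Map4k3 lost its call without MD + PE replicates 2 or 3 or MD + Veh replicate 2. Tmtc3 lost its call when any library other than MD + PE replicates 1 and 4 and MD + Veh replicate 4 was left out, and Gm15638 lost its call when any library other than MD + Veh replicates 4 and 5 was left out. ENSMUSG00000121607 lost its call when any library other than MD + PE replicate 2 and MD + Veh replicate 4 was left out.

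With the division as a covariate all 17 kept a positive sign and 0 were called by edgeR. The median was 0.46 in place of 0.45 and the smallest adjusted p was 0.0653 (Ildr2). The groups did not overlap for 15 of the 17, so the sign of these could not change. After removal of library trends on GC content and length of transcripts, the median was 0.36 and 4 were called. The 17 genes had a median transcript GC content of 43.6% (16 with a value) and a median length of 3397 bases, against 50.2% and 2560 bases over all genes tested, and the 111 genes that fell had 52.8% and 1802 bases. The part of library trends in these calls was not tested beyond these fits.

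**Figure D4:**
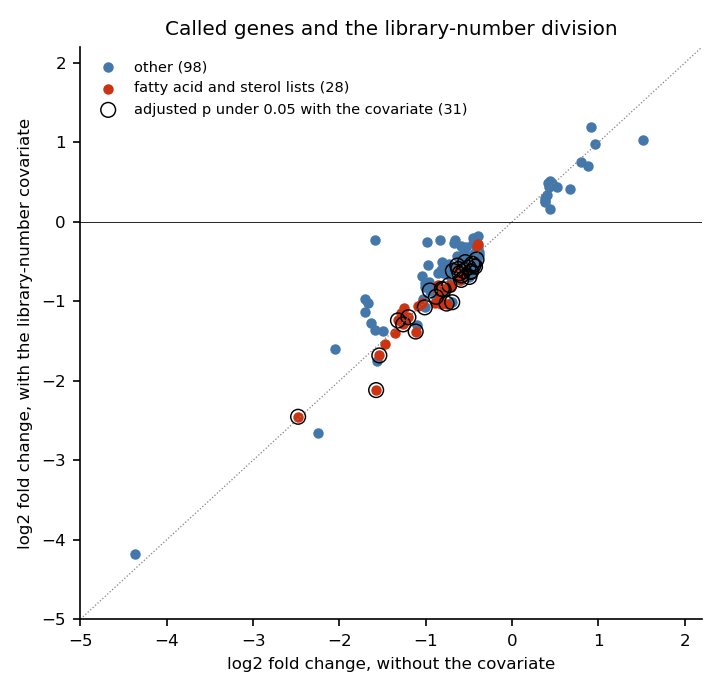
Log2 fold change of MD + PE over MD + Veh with the library-number division as a covariate (vertical axis) against the value without it (horizontal axis) for 126 called genes, leaving out the muscle and gastrointestinal lists, genes with over 50% of their CPM in 1 library, and 2 pseudogenes below -6. Red points are the 28 fatty acid and sterol genes, blue points the other 98, and open rings mark the 31 with an adjusted p under 0.05 with the covariate. The red points lie near the dotted line of equal values, and no gene that rose carries a ring.

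Several lists of oxidation, inflammation and cell types had 0 calls. For fatty acid oxidation and ketogenesis the median was 0.03 over 25 genes. For other targets of Ppara, the fatty acid receptor, the median was 0.15 over 20 genes, and Ppara itself was at 88.2 ± 16.6 and 90.6 ± 10.8 CPM in MD + Veh and MD + PE (SD, n = 5 and 5; edgeR adjusted p = 0.933). In lipid droplet coat and lipolysis the median was 0.03 over 17 genes. Plin2, the main coat protein of hepatocyte droplets, was at 438, 521, 459, 430.0 and 433 CPM in MD + Veh and at 362, 339.7, 309, 516 and 367 CPM in MD + PE (log2 fold change -0.27, adjusted p = 0.421). Xenobiotic cytochromes P450 had a median of 0.11 over 39 genes. At an unadjusted p below 0.05 the lists of oxidation, Ppara targets, droplets and cytochromes held 2, 4, 6 and 9 genes, and DESeq2 called 1, 0, 2 and 0. Cyp2e1 of pericentral hepatocytes was at 5489 ± 517 and 7420 ± 1186 CPM, without overlap, and was not called (log2 fold change 0.43, SE 0.15, adjusted p = 0.16). Cyp3a11, the main drug-metabolizing form, had a log2 fold change of 0.51 (adjusted p = 0.148).

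The acute phase list (23 genes) had a median of 0.12, the complement and coagulation list (42 genes) of -0.0045, the chemokine list (26 genes) of 0.05, the interferon-stimulated list (33 genes) of -0.09 and the ER stress list (28 genes) of 0.23, each with 0 calls by edgeR and by DESeq2. At an unadjusted p below 0.05 these 5 lists held 2, 7, 2, 0 and 6 genes, in that order. The inflammatory signature of the study is a list that its authors derived from gene ontology and scored on spatial regions. Of this list 6 genes were tested and 0 were called by edgeR or DESeq2. By edgeR 1 had an unadjusted p below 0.05, and the median was 0.16. Haptoglobin (Hp) was at 2547 ± 159 and 2925 ± 423 CPM (adjusted p = 0.411) and complement C3 at 4372 ± 357 and 4738 ± 394 CPM (adjusted p = 0.596). Kupffer cell genes had 14 of 16 negative signs, 0 calls by edgeR or DESeq2 and 0 at an unadjusted p below 0.05 (median -0.17), and Mpeg1 was at 127 ± 21.1 and 97.8 ± 19.5 CPM (adjusted p = 0.635). Sinusoidal endothelium genes had 20 of 20 positive signs, a median of 0.21 and 0 calls by edgeR (5 at an unadjusted p below 0.05), while DESeq2 called 3. Eng was at 48.2 ± 8.44 and 53.1 ± 1.36 CPM (adjusted p = 0.523) and Ehd3 at 43.2 ± 3.46 and 50.2 ± 7.74 CPM (adjusted p = 0.387). In the lipid-associated macrophage list (13 genes, 0 called by edgeR or DESeq2, 2 at an unadjusted p below 0.05, median 0.40) 1 library stood out. The summed level was 401 CPM in MD + PE replicate 4, 125 to 178 CPM in the other PE libraries and 137 to 331 CPM in MD + Veh. The erythroid list (5 genes tested, 0 called by edgeR or DESeq2, 1 at an unadjusted p below 0.05) summed to 420 to 746 CPM in MD + Veh replicates 1 to 3, 211 and 183 CPM in replicates 4 and 5 and 175 to 330.5 CPM in MD + PE. Antigen presentation genes had 1 call (H2-Q10, lower), 22 of 22 negative signs and a median of -0.41, which was -0.13 with 0 calls under the covariate.

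Of the 17 genes the study names for these data, 5 were called by edgeR, all lower, and they include Fasn, Acly, Me1 and Tm7sf2. DESeq2, the tool of the study, called 10, 6 lower and 4 higher, and edgeR with the covariate called 2. The authors chose these genes on the same samples, so their count is not independent evidence. For bulk RNA the study gave Ppara and Nr1i3 as induced relative to CD + Veh, which is another comparison. It reported Anxa2 from spatial transcriptomics of central hepatocytes, with a similar trend in some other cell types, and from RT-qPCR. By cell type in the spatial data it also gave Me1, Anxa2 and Ppara as induced by PE on MD only. There it gave Ppara and Nr1i3 as higher in Kupffer cells of MD + PE as well. The calls here therefore do not test the study's statements on these genes. Those with a positive sign had log2 fold changes of 0.99 for the droplet protein Plin4 (adjusted p = 0.0894), 0.94 for mt-Nd6 (adjusted p = 0.0634), 0.64 for Mylip, a ubiquitin ligase of lipoprotein receptors (adjusted p = 0.0512), and 0.45 for Oit3 (adjusted p = 0.0657). None of these 4 was called by edgeR, and DESeq2 called all 4 higher (adjusted p = 0.0214, 0.0202, 0.0075 and 0.0194, in that order). After removal of GC content and length trends edgeR called mt-Nd6 as well. For mt-Nd6 the level was 166 to 230 CPM in MD + Veh replicates 1 to 3, 437 and 480 CPM in replicates 4 and 5, and 398 to 742 CPM in MD + PE, and with the covariate the log2 fold change was 0.33 (adjusted p = 0.673). The others were Cyb5a (0.33, adjusted p = 0.158), Nr1i3 (0.54, adjusted p = 0.307), Nkap (0.33, adjusted p = 0.186), Fubp3 (0.15, adjusted p = 0.503), Pask (0.41, adjusted p = 0.725) and Anxa2 (0.13, adjusted p = 0.912). Pnpla3, a lipid droplet hydrolase induced by feeding, was at 1.84, 2.23, 0.886, 1.24 and 3.94 CPM in MD + Veh and at 0.244, 0.926, 0.087, 0.206 and 0.359 CPM in MD + PE (log2 fold change -2.46, adjusted p = 0.0584). MD + PE replicate 2 lay just inside the vehicle range.

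On CD, where no library is shared with this comparison, PE against vehicle called 397 genes (2.92%), and 54 genes were called in both diets, all in the same direction. Both comparisons come from the fit over all 19 libraries and share its estimate of the spread, so these calls are not independent. The 54 genes are 36.7% of the 147 and 13.6% of the 397. In the fatty acid and sterol lists 26 of 57 were called lower on CD (against 1.7% of all genes), with a median of -0.65, and 16 were called lower in both diets (57.1% of the MD calls and 61.5% of the CD calls). On CD all vehicle libraries lie on one side of the division and all PE libraries on the other, so there PE and the division cannot be told apart. The interaction of PE and diet, which tests the difference itself, called 0 of the 57, with a smallest adjusted p of 0.216, and 12 had an unadjusted p below 0.05. Over all genes it called 1 (0.00735%), Uck1, which phosphorylates uridine and cytidine, with 1193 at an unadjusted p below 0.05 and 85 called by DESeq2. Uck1 was at 40.4, 43.7, 45.5, 46.4 and 43.1 CPM in MD + Veh and at 41.9, 36.1, 32.6, 32.5 and 37.9 CPM in MD + PE (log2 fold change -0.28, edgeR adjusted p = 0.137). On CD it went from 22.2 to 34.6 CPM (log2 fold change 0.64, adjusted p = 0.00164), and the interaction was -0.91 (adjusted p = 0.024). The interaction called 0 genes in 10 of the 19 fits with 1 library left out, those without MD + Veh replicates 2, 3, 4 or 5, MD + PE replicates 2, 3 or 5, CD + Veh replicates 1 or 4, or CD + PE replicate 2. Elovl5 was at 863 and 832 CPM in CD + Veh and CD + PE (log2 fold change -0.052), with an interaction adjusted p of 0.216. The same values for Dbi were 838 and 804 CPM (-0.06), with an interaction adjusted p of 0.216.

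Skeletal muscle genes were highest in MD + Veh replicate 1, and replicates 2 and 3 also stood above MD + PE. Of 42 tested genes of this list 11 were called, all lower in MD + PE, and the list median was -7.93. The 52 listed genes summed to 7948 CPM in MD + Veh replicate 1, 537.5 and 308 CPM in replicates 2 and 3, 77.8 and 37.4 CPM in replicates 4 and 5, and 43.6 to 63.1 CPM in MD + PE. Myh2, a fast myosin heavy chain, was at 539, 35.1, 8.32, 1.55 and 0 CPM in MD + Veh and at 0.081, 0, 0.087, 0 and 0 CPM in MD + PE (log2 fold change -11.44, edgeR adjusted p = 0.0174). Acta1, skeletal actin, was at 775, 48.9, 33.3, 3.95 and 0.154 CPM in MD + Veh and at 0.069 to 0.569 CPM in MD + PE, a difference that missed the threshold (adjusted p = 0.0567), and Myh1 reached 692 CPM, Ttn, titin, 575 CPM, the calcium pump Atp2a1 521 CPM, Tnnt3, fast troponin T, 424 CPM and Mb, myoglobin, 330 CPM in MD + Veh replicate 1. These PE values are at or under 3 counts in most libraries, so the fitted fold changes depend on the prior count. With the covariate the list median was -0.64 and 0 were called, and after removal of GC content and length trends 2 were. Myh2 lost its call without MD + PE replicates 2, 3 or 4, and Atp2a1 lost its call when any library other than MD + Veh replicates 4 and 5 was left out. Tnnt3 lost its call when any library other than MD + Veh replicates 4 and 5 was left out, and Mb lost its call without MD + PE replicates 1, 2, 3, 4 or 5 or MD + Veh replicate 1. Ckmt2 lost its call when any library other than MD + Veh replicates 4 and 5 was left out, and Cryab lost its call without MD + PE replicates 1, 2, 3, 4 or 5 or MD + Veh replicate 1. Of the 147 called genes, 16 had over 50% of their summed CPM in MD + Veh replicate 1. They include Ckmt2, a mitochondrial creatine kinase of striated muscle (98.05, 6.69, 6.21, 0.464 and 0 CPM in MD + Veh, 0 in each MD + PE library), and Cryab, a small heat shock protein abundant in muscle (46.3, 5.51, 4.64, 2.94 and 3.94 CPM in MD + Veh, 1.30 to 2.60 CPM in MD + PE), neither of which is in the list.

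**Figure D5:**
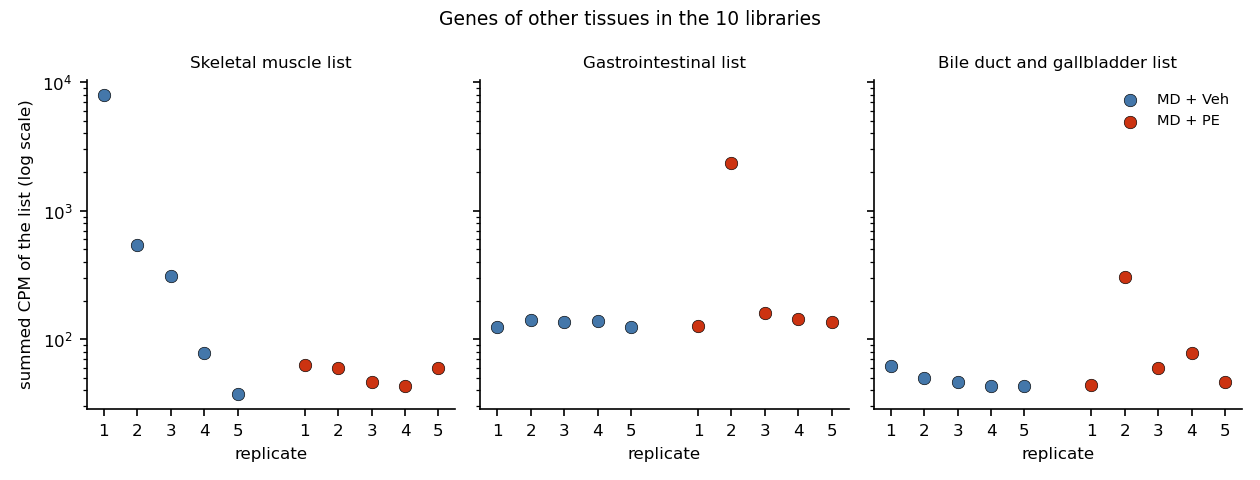
Summed CPM (vertical axis, log scale) of the skeletal muscle, gastrointestinal, and bile duct and gallbladder lists in the 10 libraries (horizontal axis, replicate number), with MD + Veh in blue and MD + PE in red. MD + Veh replicate 1 stands at 7948 CPM for muscle, with replicates 2 and 3 next, and MD + PE replicate 2 stands at 2340 CPM for the gastrointestinal list and 306 CPM for the bile duct and gallbladder list.

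Gastrointestinal genes were highest in MD + PE replicate 2. The 34 listed genes summed to 2340 CPM there and to 124 to 160 CPM in the other 9 libraries, where Fabp2, which liver also expresses, made up most of the sum (97.8 to 121 CPM in all 10). Of 7 tested genes 2 were called, both higher, against 0 with the covariate, by DESeq2 or after removal of GC content and length trends. Ctse, cathepsin E, was at 0.444, 0.3097, 0.477, 0.232 and 0.154 CPM in MD + Veh and at 0.975, 49.3, 1.74, 1.44 and 1.44 CPM in MD + PE (adjusted p = 0.0439), and Fcgbp, a mucus protein, at 0.127, 0.186, 0.273, 0.542 and 0 CPM in MD + Veh and 0, 114, 2.26, 0.343 and 0.269 CPM in MD + PE (adjusted p = 0.0481). Ctse lost its call when any library other than MD + PE replicates 1, 4 and 5 was left out, and Fcgbp lost its call when any library other than MD + PE replicates 1, 4 and 5 was left out. Elapor1 lost its call when any library other than MD + PE replicates 1 and 5 was left out. The gastric markers Tff2, Gkn2, Gkn1 and Tff1, which failed the filter, were at 959, 174, 159 and 149.6 CPM in that library and at 0 to 0.14 CPM in every MD + Veh library. MD + PE replicate 3 held 19.65 CPM of Tff2, and the other 3 PE libraries 0.16 to 1.72 CPM. Elapor1, called higher and outside the list, was at 0.569, 15.2, 2.35, 2.197 and 1.35 CPM in MD + PE.

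Bile duct and gallbladder genes moved with the same library. This list had 0 of 15 called by edgeR and 2 by DESeq2, 9 of 15 at an unadjusted p below 0.05, all higher, and a median of 1.63. Its sum was 306 CPM in MD + PE replicate 2, 43.96 to 78.6 CPM in the other PE libraries and 42.9 to 61.5 CPM in MD + Veh. Krt19 and Epcam, a keratin and an adhesion molecule of ductal and other epithelia, were at 58.7 and 29.2 CPM in that library and at most 3.11 and 3.50 CPM in the other 9. Leaving out MD + Veh replicate 1 and MD + PE replicate 2 together, a choice made after the data were seen, left 58 calls, 8 higher and 50 lower, of which 51 were among the 147, and 15 of the 57 fatty acid and sterol genes. Exocrine pancreas genes were at 0.069 to 0.674 CPM in sum, and 0 of the 12 passed the filter.

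Processed pseudogenes made up 14 of the 147 calls, all lower. Of all 268 pseudogenes tested 14 were therefore called lower, against 127 of all 13597 genes tested (0.934%). Over the 268 pseudogenes tested the median log2 fold change was -0.46, and with the division as a covariate it was -0.13 and 0 were called. The division was set with these data known, and Rps6-ps4, which follows it, is itself a pseudogene. This change of the median is therefore not independent of how the division was set. Gm11518 was at 25.7, 27.2, 30.4, 3.25 and 0 CPM in MD + Veh and 0 in each MD + PE library. MD + Veh replicates 1 to 3, below the division of library numbers, held most of it. Gm11518 lost its call without MD + PE replicates 2, 3 or 4 or MD + Veh replicates 1 or 2. Pseudogenes share sequence with their parent genes, so their counts depend on how reads were assigned. A p here measures the spread between mice of 1 cohort.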

How the data were processed

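Liver RNA was measured by poly(A) RNA-seq, and each library was taken as 1 mouse. Per the study's methods, the authors trimmed reads with fastp 0.23.4, quantified them with Salmon 1.10.3 against the GENCODE GRCm39 transcriptome with correction of sequence bias, and used tximport for sums per gene. These estimated counts were deposited as whole numbers for 55836 symbols, of which 29651 were at 0 in every library. Salmon splits reads among similar genes by estimate, so counts of paralogs and pseudogenes are uncertain. 0 columns of other samples were present. Groups and replicate numbers were taken from the labels.

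Genes were kept by edgeR's filter by group, scaled by TMM and tested by quasi-likelihood F test (edgeR 4.0.16, R 4.3.3) over all 19 libraries, with Benjamini-Hochberg adjustment over 13597 genes and the study's limits for a call, 0.05 for the adjusted p and 0.38 for the size of the log2 change. The study itself used DESeq2, run here (1.42.0) as an alternative. On simulated counts of 13427 genes with 200 changed by 1.5 on the log2 scale in MD + PE against MD + Veh, 179 (89.5%) were recovered, with 4 false calls. That change is larger than the medians of the 17 genes called higher (0.45) and the 111 called lower (-0.71). The simulation held no library-number division and no muscle or gastrointestinal genes high in single libraries. It therefore does not give the recovery or the false calls to be expected in these data. Other alternatives were RLE scaling, no filter and a stricter filter, no minimum fold, robust dispersion, the MD libraries alone, a replicate block, the library-number division as a covariate or libraries numbered 46 and above alone, thinning to 10398820 counts, removal of GC content and length trends, removal of the muscle and gastrointestinal lists, and each library left out. Leaving out both libraries with muscle or intestinal genes was added after seeing the data.

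A depth of 11163063 to 15417813 counts makes 3 counts equal to 0.186 to 0.269 CPM, which covers counting error only. No 2 replicates of a group were copies: their lowest mean squared difference was 11.2 times counting error over 20 pairs. Symbols were matched to GENCODE vM39 for 13502 genes (99.3%), and promoters were read from GRCm39. Besides the windows shown, another with the motif is not reported here.

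The members and gene lists were chosen with earlier results of these data known. Genes were named if they were called higher, or were among the 20 largest falls, outside the muscle and gastrointestinal lists, provided the groups did not overlap and the higher one averaged 5 CPM or more. Each list also gave up to 6 called members by smallest p, or members of highest level to make 2. Genes named by the study, and the 6 members of highest level in a single library in the muscle and gastrointestinal lists, were added. Acaca, Elovl6, Srebf1, Mlxipl, Msmo1, Cyp51, Lss, Ebp, Insig1, Insig2, Acsl5, Dbi, Cyb5r3, Pklr, Adipor2, Qdpr, Hgd, Haao, Aldh1l1, Paox, Uck1, Peg10, Garre1, Arhgap5, Ckmt2, Elapor1, Krt19, Epcam, Gm11518, Rps6-ps4, Gpnmb, Col1a1 and Chrna4 were named after their values were seen.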

Additional observations from a re-analysis of the deposited data

Results flagged for a closer look

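For the genes named in the text, 256 groups of 5 libraries were examined. By Dixon's criterion at 95%, 39 held a library far from the other 4. MD + Veh replicate 1 was that library in 13 groups, MD + PE replicate 4 in 8 and MD + PE replicate 2 in 7. Some of these genes were named for a high level in a single library or after their values were seen. The count of 39 can therefore not be set against a chance rate.

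In MD + Veh replicate 1 the muscle genes were high, with Acta1 at 775.1 CPM, Myh1 at 691.6 CPM, Ttn at 575.3 CPM, Myh2 at 539.4 CPM, Atp2a1 at 520.8 CPM, Tnnt3 at 424.4 CPM, Mb at 330.3 CPM, Ckmt2 at 98.05 CPM and Cryab at 46.33 CPM. The same library was the highest of its group for Ass1 (2999 CPM), Lpl (177.6 CPM), Lrtm1 (26.94 CPM) and Mysm1 (11.47 CPM).

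MD + PE replicate 2 was high for Fcgbp (113.7 CPM), Krt19 (58.69 CPM), Ctse (49.26 CPM), Epcam (29.22 CPM) and Elapor1 (15.24 CPM), and also for Elovl6 (110.6 CPM) and Nsdhl (6.989 CPM). MD + PE replicate 4 was high for Plin2 (515.8 CPM), Lpl (74.02 CPM), Col1a1 (49.37 CPM), Gpnmb (37.97 CPM) and Chrna4 (0.3433 CPM), and low for mt-Co1 (23040 CPM), C3 (4055 CPM) and Gnmt (516.7 CPM).

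MD + Veh replicate 5 was the highest of its group for Thrsp (991.1 CPM), Pklr (581.2 CPM), Acly (443.2 CPM) and Elovl6 (261.6 CPM). MD + Veh replicate 4 stood apart for Pck1 (2417 CPM, the highest) and Slc25a1 (156.6 CPM, the lowest). Elovl5 was at 1350 CPM in MD + Veh replicate 2, and Gstm2 at 12.95 CPM in MD + PE replicate 3. MD + PE replicate 1 stood apart for Prpf39 (24.13 CPM), Lss (19.99 CPM) and Myh1 (0.325 CPM).

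For Uck1 the interaction of PE and diet passed the test, at -0.9129 on the log2 scale (edgeR adjusted p = 0.024). The interaction called 0 genes in 10 of the 19 fits with 1 library left out, and on CD the effect of PE cannot be told apart from the division of library numbers.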

How the results depend on the processing

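Against 147 genes called, DESeq2 called 296, the fit without GC content and length trends 91, the MD libraries alone 73, the fit without both libraries with muscle or intestinal genes 58, the covariate 33 and libraries numbered 46 and above 18. Leaving out 1 library gave 56 to 243. Of the 57 fatty acid and sterol genes, 28 were called, 15 without both libraries, 11 with the covariate, 6 in libraries numbered 46 and above and 17 to 29 with 1 library left out. The interaction called 1 gene, 85 by DESeq2 and 0 to 3 with 1 library left out. The causes were not tested. Same-numbered MD + Veh and MD + PE libraries correlated between -0.25 and 0.16 (1 of 5 pairs over 0.1), so the numbers were not read as pairs, and 1 of 5 MD + Veh libraries correlated best with its own number. With a replicate block 58 genes and 23 of the 57 were called. Of 128 named genes tested, 85 were called, and over 1911 values under alternatives these kept their call in 1308, lost it in 603 and reversed it in 0. Of 43 not called, 11 changed sign in some alternative and 13 were called in at least 1. Depth limits genes near 3 counts per library.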
